A study of Mus musculus with 1931 samples.

Results

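Trophoblast stem cells (TSCs) are the in vitro counterpart of the extraembryonic ectoderm (ExE), the trophoblast tissue that sits next to the epiblast of the mouse embryo after implantation. They keep renewing under FGF signals, which they receive mainly through *Fgfr2*, and rest on a circuit of transcription factors that includes *Cdx2*, *Eomes*, *Elf5*, *Tfap2c* and *Tead4*. In the embryo, the ExE in turn sends BMP4 and related ligands to the epiblast, and trophoblast cells that leave the stem cell state move on to ectoplacental cone, spongiotrophoblast, labyrinth or giant cell fates.

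RtL-embryoids are aggregates built from 3 mouse ESC lines, of which 5-Factor ESCs form the ExE-like compartment. These carry doxycycline (DOX)-inducible transgenes for 5 trophoblast factors, *Cdx2* and *Eomes*, *Tfap2c*, *Gata3* and also *Ets2*. The other lines are Kermit ESCs with a GFP reporter of *Oct3/4*, and mCherry-transduced iGATA6 ESCs with a DOX-inducible *Gata6* transgene. All cells received DOX at 2 µg/ml for 3 days and then none for 24 h before they were pooled, dissociated and sorted by GFP, mCherry and the surface protein CD40 as single cells onto plates 3, 4 and 5. Each of the 5-Factor and iGATA6 cultures of the 2D experiment, and the ESCs kept in 2i/LIF, which serve here only as values side by side, is a single culture on other plates. In 2D, the 5-Factor cells received DOX for 3 days and then none for 24 h, in TSC medium with FGF4 and heparin. The 2D iGATA6 cells received DOX for the same time in XEN cell medium. One pool is 1 sample, the plates are technical splits of it, and cells were not used as replicates for any p-value.

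The stem-like ExE cells described here were taken from well numbers 17 to 24 on the 3 plates, if they had at least 2500 genes above 0 TPM (length-corrected transcript abundance). Another 17 such wells in which *Amn* and *Cubn*, a pair of visceral endoderm (VE) genes, were both above 0 were left out. A cell counted as stem-like if at least 2 of *Elf5*, *Hand1* and *Plet1* were above 0 TPM. Of the selected wells, 170 had none of the genes, 62 had 1, 48 had 2 and 56 had all 3, so that the last 2 groups are the stem-like cells (30.95% of the selected wells, exact 95% confidence interval 26.05% to 36.2%). They number 37 on plate 3, 35 on plate 4 and 32 on plate 5, and the whole series has 1931 wells. *Elf5* encodes an ETS-type transcription factor that keeps trophoblast cells committed, *Hand1* a helix-loop-helix factor of trophoblast differentiation, and *Plet1* a surface protein of the ExE and placental trophoblast. *Plet1* and *Hand1* are thus known from cells on the way out of the stem cell state as well. Because the rule reads these 3 genes from the same cells, their levels are a description, and they were left out of every comparison. Stem-like is the name of cells that met the rule, and the genes compared below do not all go with it. Of 14 compared TSC regulators, 6 were higher in these cells and 2, *Cdx2* and *Sall4*, lower. Of 11 compared trophoblast differentiation genes, 6 were higher and none lower. Over all genes compared by the thresholds given below, 9.82% were called higher and 16% lower, and the lower TSC regulators are near that last share. On the logarithmic scale given below, 7 of the 8 calls of TSC regulators and 4 of the 6 of differentiation genes were lost.

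All 3 genes were above 0 in 56 cells, *Hand1* and *Plet1* alone in 19, *Elf5* and *Plet1* alone in 18 and *Elf5* and *Hand1* alone in 11. The single gene of the 62 wells with 1 was *Elf5* in 32, *Plet1* in 21 and *Hand1* in 9. The 170 wells with none are the comparison cells. With the values of each cell scaled to a sum of 10000 (TP10k), cells with all 3 genes averaged 3.03 TP10k of *Elf5*, 3.79 of *Hand1* and 4.33 of *Plet1*. Cells with 2 of them averaged 0.855, 1.59 and 2.31. In cells with exactly 2, the weaker gene had a median of 0.765 TP10k and a lowest value of 0.0167, and it stayed under 0.1 in 9 of the 48 cells. In cells with exactly 1, that gene had a median of 0.244 TP10k, a range of 0.0117 to 5.87 and 24 values under 0.1. Without that value under 0.1 TP10k, these 9 cells would not have met the rule.

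The labels do not say which wells held which sort gate. Of the ExE markers outside the rule, the selected wells carried *Cdx2*, at a mean of 0.814 TP10k in cells with none of the 3 genes and 0.530 in cells with all of them, beside 0.00123 in wells 1 to 8 and 0.00785 in wells 9 to 16. *Tfap2c* and *Eomes* set the wells apart less. *Tfap2c* was above 0 in 44.7% of cells with none of the 3 genes, 39.5% of wells 1 to 8 and 3.49% of wells 9 to 16. For *Eomes* these shares were 37.6%, 7.96% and 23.8%. All of these markers are transgene factors of the 5-Factor cells, and their values do not tell transgene from endogenous transcripts. The same rule of 2 genes was met by 3 wells with numbers 1 to 8 (0.955%) and 17 with numbers 9 to 16 (5.40%). It was met by 91.5% of the 2D iTSC wells, which are 5-Factor cells converted in TSC medium, and by 23.2% of the 2i/LIF ESC and 19.1% of the iXEN wells. The 2D wells had more expressed genes, with medians of 8537 to 9093.5, and *Elf5* and *Hand1* averaged less than 0.01 TP10k in ESCs and iXEN cells, so that their shares rest on very low values.

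Detection moved with the number of expressed genes, the only measure of depth that TPM values keep. The stem-like share was 10% of 40 selected wells with 2500 to 4000 genes and 20.7% of 87 with 4000 to 5000. It was 38.6% (39 stem-like cells) with 5000 to 6000 genes and 39.8% (43 stem-like cells) above. Stem-like cells had a median of 5826 genes (range 3266 to 8409) and comparison cells one of 5108 (2526 to 8266), and how far depth sets membership was not tested. For all comparisons, cells were therefore paired 1 to 1 within a plate by their number of expressed genes. This gave 87 pairs, 35 on plate 3, 29 on plate 4 and 23 on plate 5, with medians of 5729 and 5629 genes. It left 17 stem-like cells without a partner and lowered the median number of genes of the others on each plate.

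A gene was called higher or lower if the ratio of the mean levels, each plus 0.05 TP10k, passed 1.5 in either direction over the 87 pairs and lay on the same side of 1 on all 3 plates. Of 11179 genes above 0 in at least 10% of either group, 2883 (25.8%) were called, of which 1785 (16% of those compared) were lower in stem-like cells and the others (9.82%) higher. The median log2 ratio of all genes was −0.06. No false-call rate can be given with 1 sample, and the gene lists below are read against these shares. A gene found in few cells could enter the comparison only through the group where it was higher, so counts of such genes lend no support. Many calls of low genes rest on the added 0.05. With the same ratio of 1.5 applied to differences of mean ln(TP10k + 1), 48 of the called genes that were listed or ranked kept their call and 57 lost it, and with 0.5 TP10k added to the means 68 kept and 37 lost it. The ranked genes, also those that stand on a list, were chosen on this ln scale, so their kept calls follow from that choice. Over all called genes, the ln scale kept 13.1% of the higher and 6.95% of the lower calls. With 0.5 TP10k added, 28.4% and 20.9% were kept. The genes that kept their call on the ln scale are named with each list.

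**Figure D1:**
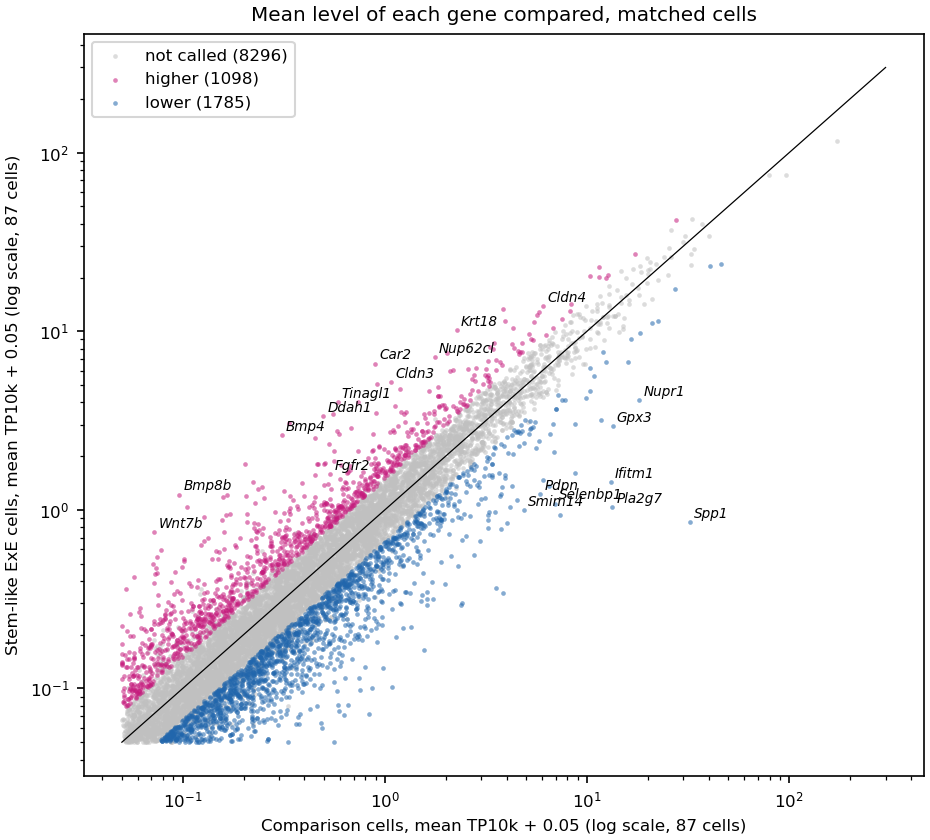
Mean level of each of 11179 genes in 87 comparison cells (x axis) and 87 stem-like ExE cells (y axis), in TP10k plus 0.05 on log scales; pink points are the 9.82% of genes called higher, blue points the 16% called lower, and the line marks equal levels. *Car2*, *Krt18*, *Bmp4* and *Wnt7b* lie far above the line and *Spp1* and *Pla2g7* far below it.

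*Car2* and *Fgfr2*, the pair of stem-like markers that the rule did not use, were both higher. *Car2* encodes a cytosolic carbonic anhydrase that is abundant in TSCs and lies on chromosome 3 from 14886273 to 14900770 (GRCm38, positions of genes from Gencode vM21). Its median was 4.60 TP10k in the 87 stem-like cells (0 to 42.8) and 0 in the comparison cells (0 to 9.86). The means on plates 3, 4 and 5 were 4.70, 6.51 and 9.38 TP10k against 1.45, 0.705 and 0.106. The single cells overlapped, but the means did not on any plate, and the ratio of the means was 7.36. *Car2* was detected in 85.1% of stem-like cells (95% interval 75.8% to 91.8%) and 29.9% of comparison cells (20.5% to 40.6%), where such intervals cover counting error only.

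*Fgfr2* encodes the FGF receptor through which trophoblast cells respond to FGF4 from the epiblast. Its median was 1.36 TP10k in stem-like cells (0 to 8.50) and 0 in comparison cells (0 to 4.79). The means were 1.21, 1.84 and 1.64 TP10k on the 3 plates against 0.359, 0.790 and 0.298, and the ratio was 2.96. It was detected in 83.9% against 40.2% of cells. Both *Car2* and *Fgfr2* were above 0 in 65 of the 87 stem-like cells (74.7%, 95% interval 64.3% to 83.4%) and in 16 of the 87 comparison cells (18.4%, 10.9% to 28.1%). Neither was above 0 in 5 stem-like and 42 comparison cells. Both other markers of the label were thus above 0 in most but not all of the stem-like cells. They were chosen with earlier results of these data known and lend the label no independent support. *Car2* was also above 0 in 97.1% of wells 9 to 16, and *Fgfr2* in 40.3%.

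**Figure D2:**
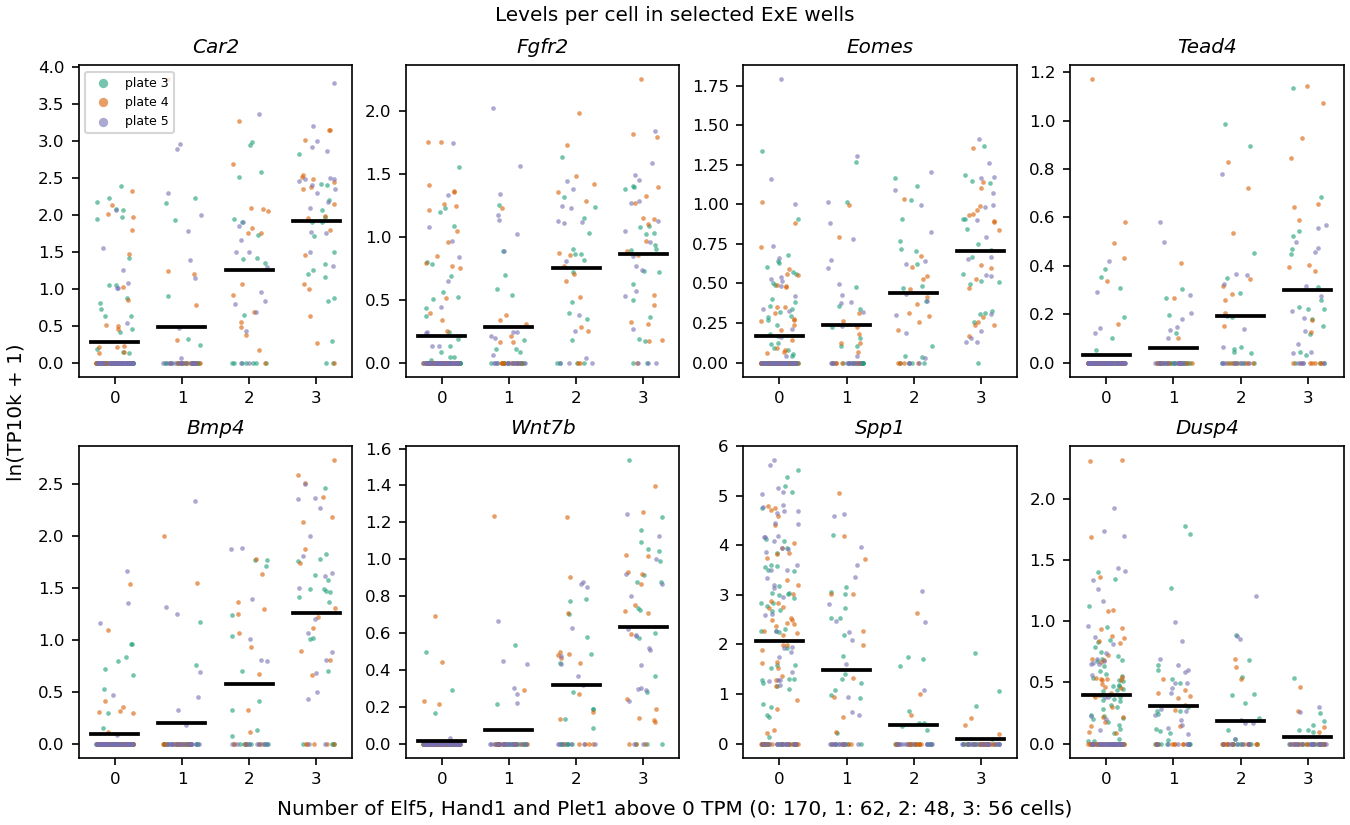
Levels of 8 genes in each of the selected ExE wells, as ln(TP10k + 1) on the y axis, by how many of *Elf5*, *Hand1* and *Plet1* were above 0 (x axis; 170, 62, 48 and 56 cells); points are cells coloured by plate and black lines are means. Means of *Car2*, *Fgfr2*, *Eomes*, *Tead4*, *Bmp4* and *Wnt7b* step up with each further gene, while *Spp1* and *Dusp4* step down.

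Levels were graded over the number of rule genes. *Car2* averaged 0.756, 2.21, 4.71 and 8.44 TP10k in all cells with 0, 1, 2 and 3 of the genes, and *Fgfr2* 0.401, 0.531, 1.48 and 1.74. The step from 1 to 2 genes, where the rule divides the cells, was the widest for *Fgfr2*. The median number of expressed genes was 5108, 5348 and 5826 for cells with 0, with 1 and with 2 or more, which moved in the same direction, and the part of depth in these unmatched means was not tested.

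Among 16 listed TSC regulators, 14 were frequent enough to compare, 6 were higher (*Eomes*, *Gata2*, *Tead4*, *Ddah1*, *Lin28a* and *Zfp281*) and 2 lower (*Cdx2* and *Sall4*), with a median log2 ratio of 0.37. Of these 8 calls, only that of *Ddah1*, which encodes an enzyme and no transcription factor, was kept on the ln scale, and 7 were lost. Those of *Ddah1*, *Cdx2*, *Eomes* and *Tead4* were kept with 0.5 TP10k added. *Eomes*, a T-box factor needed for TSCs, had medians of 0.744 TP10k in stem-like (0 to 3.12) and 0 in comparison cells (0 to 2.81). Its means on the 3 plates were 0.949, 0.798 and 1.04 TP10k against 0.333, 0.133 and 0.213, a ratio of 3.42 over all pairs. It was detected in 98.2% of the 56 cells with all 3 genes and in 37.6% of the 170 with none.

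*Tead4*, the TEAD-family factor that acts at the start of the trophoblast lineage, averaged 0.345 TP10k in stem-like and 0.0377 in comparison cells, a ratio of 4.50, and was detected in 62.1% against 12.6% of them. *Ddah1*, an enzyme that breaks down methylated arginine and a TSC-enriched gene, averaged 3.29 against 0.446 TP10k. *Gata2*, a GATA factor of trophoblast differentiation, averaged 0.382 against 0.123 TP10k. Its plate ratios were uneven, with 0.372 against 0.269 TP10k on plate 3 and 0.302 against 0 on plate 5, and it was highest in cells with exactly 2 of the genes (0.581 TP10k) rather than 3 (0.185).

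*Cdx2*, the caudal-type factor that specifies trophectoderm, went the other way, with medians of 0.126 TP10k in stem-like (0 to 2.90) and 0.589 in comparison cells (0 to 8.11). Its means were 0.605, 0.246 and 0.555 TP10k on the 3 plates against 1.11, 0.9499 and 0.753, a ratio of 0.516. It was still detected in 62.1% of stem-like cells, and in 76.8% of those with all 3 genes. *Tfap2c*, *Esrrb*, *Sox2*, *Ets2* and *Gata3* were not called. For *Tfap2c*, the median was 0.904 TP10k against 0.138 although the means were 1.08 and 1.30, because the comparison cells reached up to 24.4. *Cdx2*, *Eomes* and *Tfap2c* were above 0 together in 47 of 87 stem-like and 25 of 87 comparison cells. Values of the 5 transgene factors do not tell transgene from endogenous transcripts, and *Fgf4*, which the epiblast supplies, was listed at 0 in every matched cell.

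The 16 FGF receptors and ERK response genes did not move together. Of 15 compared, 4 were higher and 3 lower, of which *Fgfr2* kept its call on the ln scale. *Etv4*, an ETS factor that FGF signals induce, averaged 0.692 against 0.238 TP10k, *Fosl1*, an AP-1 subunit of invasive trophoblast, 0.146 against 0.00643, and *Fgfr4* 0.183 against 0.0868. *Fgfr1* differed little, with 1.02 and 0.942 TP10k. Of the feedback inhibitors of ERK signalling, *Dusp4* averaged 0.185, 0.0895 and 0.183 TP10k on the 3 plates against 0.560, 0.459 and 1.156, a ratio of 0.276, and *Spry2* 1.51 against 2.40. *Dusp6* was not called and had ratios on either side of 1 between plates. *Egr1*, an immediate early gene, was the other gene called lower, with 0.0197 against 0.115 TP10k, but was above 0 in only 6 and 10 cells. One comparison cell reached 3.80 TP10k, the ratios on the 3 plates were 0.258, 0.931 and 0.708, and the call ended without plate 3 (ratio 0.814).

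By the ratio of the means, the widest differences among signalling genes were in the ligands *Bmp4*, *Bmp8b*, *Wnt7b* and *Wnt6*. On the ln(TP10k + 1) scale the order of the following genes was another, with −0.68 for *Id3* beside 0.60 for *Bmp8b*, 0.51 for *Fgfr2*, 0.43 for *Wnt7b* and 0.23 for *Wnt6*. *Bmp4* and *Id2* are not part of this order, and both kept their call on that scale. *Bmp4*, which in the embryo reaches the epiblast from the ExE, had medians of 1.53 TP10k in stem-like (0 to 14.3) and 0 in comparison cells (0 to 4.30). Its means were 2.10, 3.04 and 2.76 TP10k on the 3 plates against 0.226, 0.160 and 0.434, a ratio of 8.53. It was detected in 65.5% of stem-like (54.6% to 75.4%) and 17.2% of comparison cells (9.98% to 26.8%). *Bmp8b*, which acts with *Bmp4* in the induction of germ cells, had means of 1.07, 0.847 and 1.73 TP10k against 0.0599, 0.0660 and 0, and was detected in 81.6% against 14.9% of cells.

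*Wnt7b*, a Wnt ligand needed for the placenta, averaged 0.781, 0.604 and 0.699 TP10k on the 3 plates against 0.0334, 0.0272 and 0. It was detected in 72.4% of stem-like and 5.75% of comparison cells, and reached 3.64 TP10k in the former and 0.647 in the latter. *Wnt6* averaged 0.394 against 0.0242 TP10k. *Pcsk6*, a convertase that matures Nodal and BMP precursors, averaged 0.119 against 0.0116, and *Nodal* itself was called higher at 0.0473 against 0.0110, a level close to the added 0.05. *Furin*, the other convertase, was not called. The receptors *Bmpr1a* and *Bmpr2* were not called either, with 0.20 and 0.03 TP10k in stem-like cells.

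Of the Id genes, inhibitors of helix-loop-helix factors that BMP signals induce, *Id2* was higher and *Id1* and *Id3* lower. *Id2*, a TSC-enriched gene, averaged 12.9, 9.11 and 12.8 TP10k on the 3 plates against 5.81, 8.39 and 8.72, so plate 4 hardly differed. *Id3* had medians of 0 in stem-like (0 to 6.77) and 1.62 TP10k in comparison cells (0 to 32.9). Its means were 0.895, 0.678 and 0.573 TP10k against 2.81, 3.91 and 2.86, and *Id1* averaged 0.387 against 0.785. In all, 8 of 16 compared BMP, Nodal and Wnt genes were higher and 2 lower, with a median log2 ratio of 0.58. *Bmp4*, *Bmp8b*, *Wnt7b*, *Id2* and *Id3* kept their call on the ln scale, and that of *Id2* ended without plate 3.

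**Figure D3:**
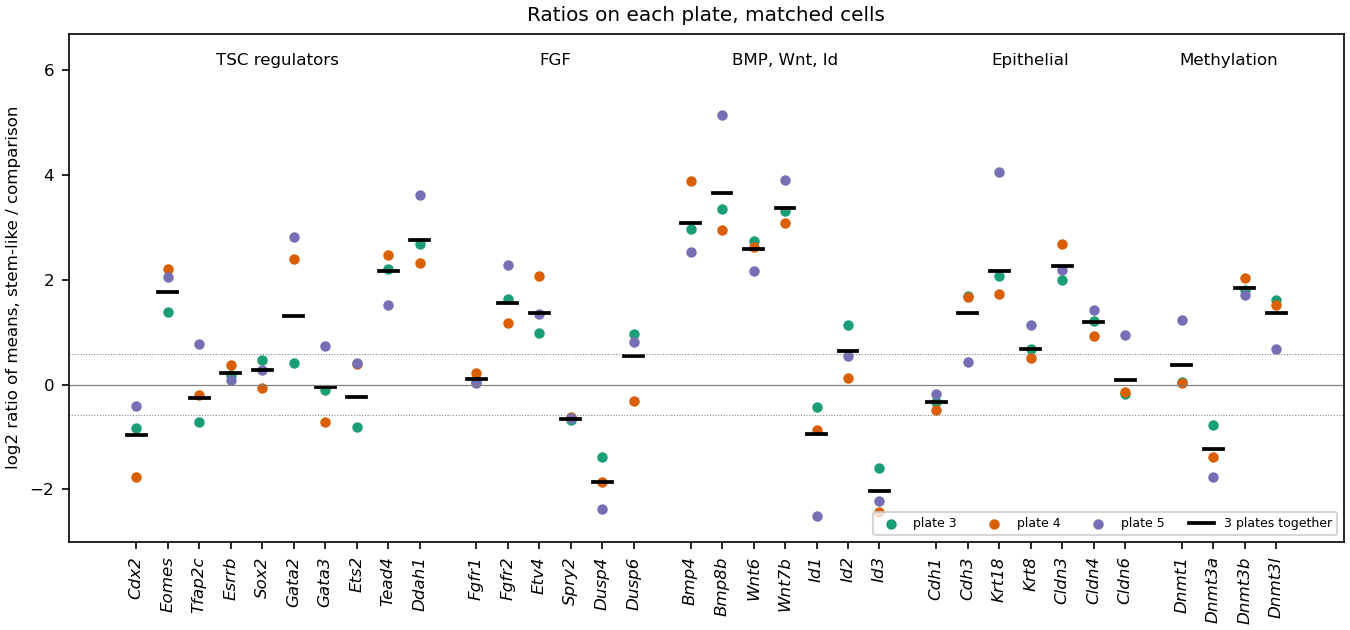
Log2 ratio of the mean levels (plus 0.05 TP10k) in stem-like against comparison cells on each plate (coloured points) and over the 87 pairs (black lines), for 34 listed genes; dotted lines mark a ratio of 1.5 in either direction. *Bmp4*, *Bmp8b*, *Wnt6* and *Wnt7b* lie above the upper dotted line on each plate, and *Cdx2*, *Dusp4*, *Id1*, *Id3* and *Dnmt3a* below 0 on each.

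Genes of the next trophoblast steps were present in part. Of 23 listed differentiation genes, 22 are in the table, 11 could be compared, 6 were higher and none lower, with a median log2 ratio of 0.87. *Igf2* and *Rhox6* kept their call on the ln scale. *Igf2*, the paternally expressed growth factor, averaged 8.25, 10.7 and 10.2 TP10k on the 3 plates against 5.76, 5.39 and 3.88. *Rhox6*, a placental homeobox gene, averaged 4.83 against 1.78, *Krt7*, a trophoblast keratin, 0.493 against 0.0244, and *Mmp9*, a protease of invasive trophoblast, 0.584 against 0.0728. *Ascl2*, a helix-loop-helix factor of the ectoplacental cone, averaged 0.273 against 0.126 TP10k.

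Single cells carried some of these means. *Cdkn1c*, an imprinted inhibitor of the cell cycle that is high in giant cells, was detected in 35.6% of stem-like and 4.60% of comparison cells, with maxima of 49.8 and 35.97 TP10k. Its means were 1.58 and 0.607, and 1.02 and 0.195 without the highest cell of each group. Without the highest cell of each group and plate, its call was lost. *Rhox6* reached 48.3 TP10k in stem-like and 52.6 in comparison cells. Genes of later fates were at or near 0, with *Gcm1* of the syncytiotrophoblast in 2.30% of cells of both groups, *Tpbpa* of the spongiotrophoblast in 2.30% and 3.45%, and the giant cell gene *Prl3d1* listed at 0 in every matched cell.

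Most of the listed epithelial genes were called higher. Of 19 genes for junctions, keratins and related proteins, all could be compared, 11 were higher and 1 lower, with a median log2 ratio of 0.92. *Krt18*, *Cldn3*, *Cldn4*, *Cldn7* and *Cd9* kept their call on the ln scale, and the other 7 calls were lost. *Krt18*, which pairs with *Krt8* in simple epithelia, had medians of 4.94 TP10k in stem-like (0 to 82.1) and 0 in comparison cells (0 to 60.9). Its means were 10.8, 10.9 and 8.24 TP10k on the 3 plates against 2.52, 3.26 and 0.449, a ratio of 4.49. *Krt8* was called with 7.36 against 4.55 TP10k, but was highest in cells with exactly 2 genes (10.04 TP10k) and no higher in cells with all 3 (4.23) than in those with none (4.36).

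The claudins seal tight junctions between epithelial cells. *Cldn4* had medians of 12.7 (0 to 47.1) and 1.74 TP10k (0 to 43.2), and *Cldn3*, its neighbour on chromosome 5, medians of 4.50 (0 to 15.8) and 0.238 (0 to 10.3). Both groups spanned wide and overlapping ranges, while *Cldn3* means were 5.35, 5.95 and 3.77 TP10k on the 3 plates against 1.30, 0.878 and 0.784. *Cldn7* was higher as well, and *Cldn6* was not called (3.82 and 3.59). *Grhl2* and *Esrp1*, a transcription factor and a splicing factor of epithelia, were higher at low levels, with 0.148 and 0.168 TP10k against 0.0544 and 0.0456. *Cdh1* and *Epcam*, found in nearly all cells of both groups, were not called. *Cd40*, whose protein served in the sort and whose level is therefore no finding, averaged 0.479 against 0.871 TP10k.

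Of 13 genes that were higher and were looked up after their values were known, 11 have a promoter window in the RefSeq table, and 7 of these windows hold none of the letters searched (*Cldn3*, *Cldn4*, *Bmp4*, *Bmp8b*, *Ddah1*, *Eomes* and *Nup62cl*). *Tinagl1* holds the TEAD and *Gtpbp4* the GATA letters given below. Sequence upstream of *Fgfr2* and *Krt18*, the other 2 with a match, is shown as an example of such letters. The windows are the 250 bases before the start in RefSeq (GRCm38.p6), chr7:130266809-130267058 on the minus strand for *Fgfr2* and chr15:102027966-102028215 on the plus strand for *Krt18*. The Gencode entry of *Fgfr2* runs from 130162451 to 133123350 on chromosome 7, far beyond this start. Capitals mark, in *Fgfr2*, TTTATG of CDX factors and the reverse complement of AACCGG of GRHL factors, and in *Krt18* a match to GCCNNNGGC of TFAP2 factors.
Fgfr2: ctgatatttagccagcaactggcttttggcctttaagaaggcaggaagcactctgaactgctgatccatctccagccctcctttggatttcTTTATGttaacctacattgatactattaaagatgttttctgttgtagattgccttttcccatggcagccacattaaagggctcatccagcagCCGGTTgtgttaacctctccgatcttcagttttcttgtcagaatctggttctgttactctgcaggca
Krt18: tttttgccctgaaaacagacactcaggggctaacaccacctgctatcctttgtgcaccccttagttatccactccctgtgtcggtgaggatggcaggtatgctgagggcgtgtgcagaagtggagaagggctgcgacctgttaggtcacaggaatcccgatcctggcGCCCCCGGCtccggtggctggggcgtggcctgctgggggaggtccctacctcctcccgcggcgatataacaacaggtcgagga
On both strands, the TFAP2 letters were in 20.3% of the promoter windows of genes called higher, 23.8% of 1393 of genes called lower and 21.2% of 8826 of all genes compared, beside 13.6% of all 27025 windows. For the GRHL letters the shares were 9.005%, 7.47%, 9.49% and 5.55%, and for the CDX letters 5.57%, 5.31%, 5.61% and 11.1%. The letters GGAATG for TEAD factors, CCGGAAGT for ETS factors and, for the GATA family, AGATAA were searched as well and were in 11.4%, 4.50% and 5.09% of the windows of genes called higher and 10.03%, 6.36% and 5.56% of those of genes compared. A match is a description of these letters and no evidence of binding, and the shares of the called genes lay near that of all genes compared.

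Of 15 genes for making ribosomes, 9 were called higher and none lower, and all 15 had ratios above 1, with a median log2 ratio of 0.64. *Npm1*, *Ncl* and *Nop10* kept their call on the ln scale, and that of *Npm1* ended without plate 5. *Npm1*, a nucleolar chaperone, averaged 46.3, 40.99 and 36.5 TP10k on the 3 plates against 31.8, 27.6 and 21.3, and was found in every matched cell. *Ncl*, the nucleolin gene, averaged 6.04 against 3.52 TP10k and *Nop10*, a part of the box H/ACA particle, 2.16 against 1.07. The summed level of the 15 genes was 87.7 TP10k in the median stem-like cell (32.9 to 124.1) and 51.2 in the median comparison cell (22.9 to 131.6). *Gtpbp4*, a GTPase of ribosome assembly outside the list, was among the 10 widest differences, with medians of 10.7 and 2.31 TP10k.

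Most proliferation genes were not called. Of 20 genes, *Ccne1*, the G1/S cyclin E1, was higher at 2.59 against 1.38 TP10k, and the others were not called. The ratio was above 1 for 18 of the 20, among them *Rrm2* of nucleotide synthesis (7.19 and 5.24 TP10k) and the replication gene *Mcm5* (2.82 and 2.08), and below 1 for *Mki67* (0.343 and 0.354) and *Top2a* (2.26 and 2.82). The median log2 ratio of the list was 0.23. None of 12 CDK inhibitors and p53 targets was called in either direction, with a median of −0.22, and *Cdkn1a* averaged 1.27 against 2.20 TP10k without a call. *Cdkn1c*, a CDK inhibitor that was called higher, stands on the differentiation list instead.

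Of 8 DNA methylation genes, all were compared, 2 were higher and 1 lower, and *Dnmt3b* kept its call on the ln scale. *Dnmt3b*, a de novo methyltransferase, averaged 1.54, 1.21 and 1.27 TP10k on the 3 plates against 0.402, 0.257 and 0.353, and was detected in 88.5% against 29.9% of cells. *Dnmt3l*, the cofactor without catalytic activity, averaged 0.548 against 0.182 TP10k. *Dnmt3a* was lower, with 0.414, 0.374 and 0.266 TP10k against 0.741, 1.06 and 1.02, and was still detected in 48.3% of stem-like cells. *Dnmt1* and the Tet genes were not called.

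Of 23 actin and calcium-binding cytoskeleton genes, 18 were compared, 4 were higher and 8 lower, and 7 of these 12 calls were kept on the ln scale. *S100a6*, *Tagln2*, *Lgals1* and *Anxa2* were higher, with *S100a6* at 1.77 against 0.416 and *Lgals1* at 12.7 against 5.73 TP10k. The contractile and crosslinking genes *Flna* (0.870 against 2.59 TP10k), *Cnn2* (0.894 against 2.41) and *Tpm1* (2.81 against 5.25) were lower. *Myl9*, a myosin light chain, was listed at 0 in all 87 stem-like cells and was detected in 22.99% of the comparison cells, with a mean of 0.508 TP10k. Of 11 listed YAP targets, 9 are in the table, 7 were compared and *Cyr61* was called higher (0.430 against 0.251), a call that was lost on the ln scale and without plate 3.

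**Figure D4:**
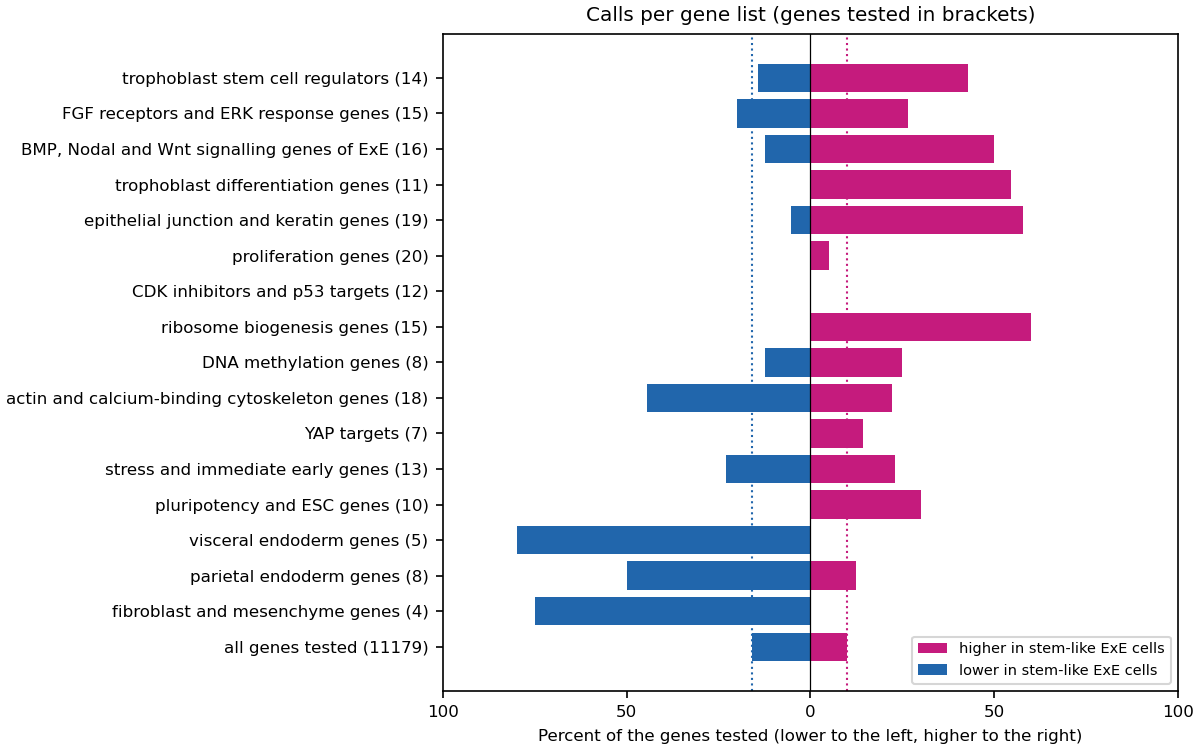
Percent of the compared genes of each list that were called higher (pink, to the right) or lower (blue, to the left) in stem-like ExE cells, with the number compared in brackets; dotted lines mark 9.82% and 16% of all 11179 genes. The ribosome biogenesis, epithelial, trophoblast differentiation and BMP, Nodal and Wnt lists reach farthest to the right, and endoderm and mesenchyme lists farthest to the left.

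The genes with the largest differences on the ln(TP10k + 1) scale were chosen by rank. Upward, 9 of the 10 genes were *Car2*, *Krt18*, *Nup62cl*, *Cldn4*, *Tinagl1*, *Cldn3*, *Ddah1*, *Fdps* and *Gtpbp4*. *Fdps*, farnesyl diphosphate synthase of the cholesterol pathway, averaged 9.81, 11.99 and 13.2 TP10k on the 3 plates against 4.49, 3.62 and 3.23. *Tinagl1*, a secreted matrix protein, averaged 3.94 against 0.533, and *Nup62cl*, an X-linked gene, 7.10 against 1.71.

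Downward the 10 genes were *Spp1*, *Pla2g7*, *Ifitm1*, *Selenbp1*, *Nupr1*, *Gpx3*, *Pdpn*, *Smim14*, *Mdk* and *Gpc3*. *Spp1*, osteopontin, had medians of 0 in stem-like (0 to 20.9) and 8.70 TP10k in comparison cells (0 to 303.3). Its means were 0.688, 0.4997 and 1.37 TP10k on the 3 plates against 16.2, 24.2 and 67.2, and a single comparison cell could exceed all stem-like cells together. *Pla2g7*, a secreted phospholipase, had medians of 0 (0 to 20.6) and 11.3 TP10k (0 to 41.7) and was in 39.1% against 93.1% of cells. *Ifitm1*, an interferon-induced membrane protein, averaged 1.38 against 13.1, and *Selenbp1*, a selenium-binding protein, 1.03 against 6.88. *Nupr1*, a stress-induced chromatin protein, averaged 4.27, 4.14 and 3.65 TP10k on the 3 plates against 16.6, 13.96 and 25.5. *Gpx3* and *Mdk*, a secreted glutathione peroxidase and the growth factor midkine, averaged 2.90 and 1.32 TP10k against 13.3 and 6.47.

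*Nupr1* also stands on the list of 14 stress and immediate early genes, of which 13 were compared, 3 were higher (*Asns*, *Trib3* and *Chac1*) and 3 lower (*Nupr1*, *Ddit3* and *Jun*). *Asns*, asparagine synthetase, averaged 8.02 against 4.30 TP10k, *Jun* 0.0472 against 0.257. The list thus had no common direction, and *Nupr1* and *Asns* kept their call on the ln scale.

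Levels in the other wells of the series set the leading genes apart by source. Among genes that were higher, *Cldn3* averaged 5.31 TP10k in cells with all 3 rule genes, 2.74 in 2D iTSCs and 0.0751 or less in wells 1 to 8, wells 9 to 16, 2i/LIF ESCs and 2D iXEN cells. *Bmp8b* averaged 1.71, 1.496 and at most 0.0314 in the same groups, and *Wnt7b* 1.05, 1.09 and at most 0.077. *Car2* was not restricted in this way, with 8.44 TP10k in cells with all 3 genes, 4.28 in iTSCs and 4.53 in wells 9 to 16. Of the genes that were lower, *Pla2g7* averaged 13.5 TP10k in comparison cells and 0.512 or less in all other sources named, and *Selenbp1* 7.14 and at most 0.197. *Spp1* averaged 29.7 TP10k in comparison cells, 24.1 in ESCs and 0.229 in iTSCs. Cultures, plates and numbers of expressed genes differ between these sources, and the levels are given side by side only.

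**Figure D5:**
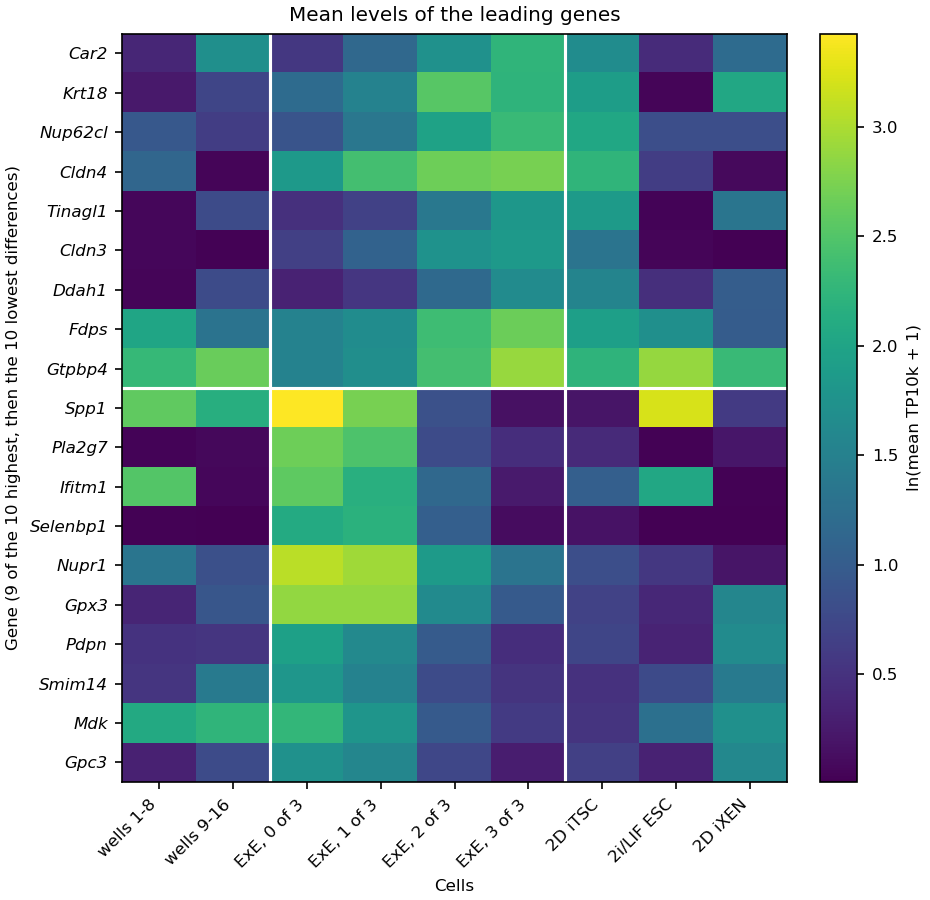
Mean levels, as ln(mean TP10k + 1) by colour, of 9 of the 10 genes highest and the 10 lowest in stem-like cells (rows, white line between them) in wells 1-8, wells 9-16, selected ExE wells with 0 to 3 of the rule genes, and 2D iTSC, 2i/LIF ESC and 2D iXEN wells (columns). The column with 3 rule genes is brighter than that with none in the upper block and darker in the lower one, and the 2D iTSC column has a similar pattern, with *Ifitm1* in between.

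Markers of other cell types gave a mixed picture. Of 13 VE genes, 5 could be compared, 4 were lower and none higher, with *Gata4* at 0.0777 against 0.509 and *Lrp2* at 0.0253 against 0.102 TP10k, beside 2.90 TP10k of *Gata4* in wells 9 to 16. The summed level of the list was 0 in the median stem-like cell (0 to 34.3) and 0.584 in the median comparison cell (0 to 7.97), and *Sox17* was listed at 0 in both. *Amn* was above 0 in 12.6% and 8.05% of the matched cells, and 18 of all stem-like cells had *Amn* or *Cubn*. Of 13 fibroblast and mesenchyme genes, 4 were compared and *Vim* (0.844 against 1.84 TP10k), *Cdh2* and *Zeb1* were lower, with list sums of 0 to 16.9 and 0 to 13.8 TP10k and *Postn* and *Lum* at 0. Of 9 parietal endoderm genes, 8 were compared, *Sparc* was higher (3.52 against 1.69) and 4 were lower. VE and mesenchyme genes near 0 could enter through the comparison cells alone, so their counts of lower genes support no difference. Of the calls on these 3 lists, those of *Vim* and *Sparc* were kept on the ln scale. These are levels of groups, and the part of other cell types in the differences was not tested.

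Pluripotency genes were uneven. Of 15 listed, 10 were compared and 3 were higher, all of which kept their call on the ln scale. *Utf1*, a chromatin protein of ESCs that is also known from the ExE, averaged 3.15, 2.49 and 3.48 TP10k on the 3 plates against 0.691, 0.0270 and 0, and reached 6.32 in 2D iTSCs. *Dppa5a* averaged 4.73 against 1.14 TP10k, with 1 stem-like cell at 129.4, and *Dppa4* 1.79 against 0.455. *Dppa5a* was thus far below its 237.7 TP10k in wells 1 to 8. *Pou5f1* (0.195 and 0.376 TP10k) and *Nanog* (0.142 and 0.148) were not called, and the list summed to 0.794 to 137.1 TP10k in stem-like and 0.193 to 79.4 in comparison cells.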

How the data were processed

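SMART-seq2 libraries of single cells of RtL-embryoids and 2D cultures were read from 1 table. Per the methods and labels, the authors used bcl2fastq (2.20) and kallisto on the mouse transcriptome (GRCm38) and removed mitochondrial, ribosomal and pseudogenes. The deposited values are TPM for 20999 genes in 1931 wells, and keep neither read numbers nor molecule counts. The values of each cell were rescaled to 10000 (TP10k).

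Members were selected as the report states. Cells were paired within a plate by the assignment with the smallest total distance in expressed genes, at most 300 apart (median 62, largest 299). Means include zeros, 0.05 TP10k was added before ratios, and calls are thresholds, not tests. Intervals are Clopper-Pearson at 95%. Listed genes were described by list, and the 10 highest and 10 lowest genes were named by the difference of mean ln(TP10k + 1) among genes in at least 25% of either group with 1 sign on all plates. The members and lists were chosen with earlier results of these data known. Python 3.11.15, numpy 2.4.6, scipy 1.17.1 and pandas 2.3.3 were used. No doublet caller was run, since each well was sorted to hold 1 cell. Some genes are not reported here and were taken off their lists, and 1 of the 10 highest genes is not named for this reason.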

Additional observations from a re-analysis of the deposited data

Results flagged for a closer look

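Wells 9 to 16, which lie outside the comparison, also held cells that met the rule of 2 genes, 5.40% of these wells (95% interval 3.17% to 8.50%), above the 0.955% of wells 1 to 8. Of these 17 wells, 16 had both *Amn* and *Cubn* above 0, 17 had *Plet1*, 16 *Elf5* and 4 *Hand1*. Their mean *Elf5* was 0.315 TP10k, beside 0.00604 in the other wells 9 to 16, and *Cdx2* was above 0 in 3 of them. They had a median of 6265 expressed genes against 5290.5, and the part of this in the result was not tested.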

How the results depend on the processing

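The share of compared genes that were called, 9.82% higher and 16% lower, depended on the scale. With differences of mean ln(TP10k + 1), 1.35% of genes were called higher and 1.12% lower, and with a pseudocount of 0.5 TP10k 2.79% and 3.34%; adding more to both means brings ratios of low genes closer to 1. Leaving out 1 plate left 52 to 64 pairs, and a call then asks for the same side of 1 on the remaining plates only, which is a weaker rule. It gave 10.2% to 15.8% higher, the latter without plate 3, and 16.9% to 20.9% lower, and a stem-like share of 30.3% to 31.9%. A rule that asks for all 3 genes gave a share of 16.7%, and under it *Krt8* (log2 ratio −0.28), *Cd40* (0.0165) and *Anxa2* (−0.11) turned their direction; the cause was not tested. Under the other matchings, minimums, comparison cells, filters and scalings, the numbers of genes called stayed within 1.5 times. They also did so without the highest cell of each group and plate, an alternative chosen after seeing the data. The genes called were not all the same. Without cells in which *Tdgf1*, *Amn* or *Cubn* was above 0, 76.6% of the higher and 79.8% of the lower calls were kept. Without matching, these shares were 80.2% and 80.4%. With TPM as deposited, not rescaled per cell, they were 99.3% and 93.1%, and without a filter on low values every call was kept. Without plate 3 the calls of *Zfp281*, *Egr1*, *Id2*, *Smad7*, *Krt19* and *Cyr61* ended, without plate 4 those of *Fgfr4*, *Nodal*, *Ascl2*, *Cdkn1c*, *Actn1*, *Tmsb4x*, *Chac1* and *Gata6*, and without plate 5 those of *Zfp281*, *Id1*, *Smad7*, *Npm1*, *Fbl*, *Tpm4*, *Anxa2* and *Zeb1*. Of 1680 values of called and named genes under 16 alternatives, 1677 kept their direction. A call asks for the same side of 1 on all 3 plates, and the alternatives reuse the same cells. The kept directions were thus largely set in advance and lend the calls no support. Of the calls of these genes, 57 ended on the ln scale and 37 with the pseudocount of 0.5. No paired analysis was possible because all matched cells come from 1 pool and the labels give no replicate numbers that groups share; the matching pairs cells by expressed genes, not samples. With 1 sample, spread between embryoid pools is unknown, and a gene at 0 TPM may have been missed.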
